A study of Mus musculus with 3 samples.

Results

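The haematopoietic niche factors examined here are 7 genes of bone marrow stroma that support blood stem and progenitor cells: Cxcl12, Kitl, Angpt1, Il7, Thpo, Vcam1 and Foxc1. They were chosen by name, with earlier results of these data known, and their probes match these symbols through a transcript accession. They make up 7 of the 20279 genes with a named probe on the array. The study measured total RNA of mouse bone marrow mesenchymal stem cells (MSCs), the stromal precursors of bone, fat and cartilage, on 1-colour Agilent arrays. Its question was how expression differed over the course of osteogenic induction. There were 3 groups with 1 array each. The day 0 group was primary MSCs before induction. The day 3 and day 21 groups were such cells after 3 or 21 days with 50 µg/mL ascorbic acid, a cofactor of collagen maturation, and 10 mM β-glycerophosphate, a phosphate donor for mineral. The groups shared αMEM with 10% serum, and the mice were males of 8 weeks. Strain, genotype and the number of mice behind a culture were not given in the sources used here. No group had a replicate, so no difference below has a replicate check and no test between days was possible.

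In the marrow, perivascular stromal cells secrete CXCL12, a chemokine that holds blood stem cells in place through the receptor CXCR4, and KIT ligand (Kitl, stem cell factor), which the same blood cells need for survival. Interleukin 7 from stroma supports early B cell development, angiopoietin 1 acts on the receptor TIE2 (Tek) of endothelial and blood stem cells, and thrombopoietin (Thpo), made largely by the liver, sustains platelet precursors and blood stem cells. VCAM1 is the stromal adhesion partner of the integrin VLA-4 on blood cells, and the transcription factor FOXC1 maintains the CXCL12-abundant reticular cells of mouse marrow.

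Of the 20279 named genes, 63.8% to 66.2% were well above background on each array, meaning that the scanner software marked at least 50% of a probe's spots so. Differences are log2 values of the later minus the earlier day, after each array was scaled to its 75th percentile signal, and a gene counts as higher or lower when it differed at least 2-fold. The error given after a log2 difference is the SD that the software's error model gives for it, which covers the array and not cultures or animals. The day 0 and day 21 arrays lay on 1 slide and the day 3 array on another, so day 3 cannot be told apart from its slide. Bulk RNA cannot tell fewer cells of a type from less RNA per cell.

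The cultures were checked against defining markers. All 8 MSC markers were well above background on every array, although Pdgfra was 5.12 and Ly6a 3.20 log2 units higher at day 21 while Cd44 was lower at day 21 (log2 difference -2.62). Of 7 osteoblast markers 3, 5 and 6 were above background at day 0, 3 and 21, and Sp7 on none of the arrays. Of 7 adipocyte markers 3, 6 and 7 were above background, and their summed level, in units of the array's 75th percentile signal, was 7.14, 32.3 and 1044. Of 6 pericyte and smooth muscle markers all 6 were above background on each array, with a summed level of 1785, 720 and 334. That sum was led by Acta2 and Cnn1 (log2 differences of -2.24 and -3.86 at day 21 against day 0). Myh11 (-2.08), Mcam (-1.55) and Cspg4 (-2.77) were also lower at day 21, while Rgs5 was higher (1.21). Of 5 pan blood cell markers only Coro1a was above background; Ptprc, Spi1, Laptm5 and Cd52 were not on any array, nor were the 5 B cell markers. Of 3 blood progenitor markers 1, 1 and 2 were above background at day 0, 3 and 21, with a summed level of 2.35, 28.2 and 76.9. That sum was almost wholly Cd34, a surface sialomucin of blood progenitors that endothelial and stromal cells also carry, with signals of 399, 4921 and 14642 and log2 differences of 3.60 at day 3 and 5.05 at day 21. Flt3 was above background at day 21 alone (signal 12.5) and Kit on no array. Of 5 named macrophage markers Itgam and Csf1r were above background and Adgre1, Fcgr1 and C1qa were not. Of 3 T cell markers Cd3e and Lck were above background and Cd3g was not. Of 7 endothelial markers 4 were above background on each array, though not the same 4, and Cdh5 on none. Esam was above background at day 0 only and Emcn at day 0 and day 3. Tek was above background at day 3 and day 21 and Vwf at day 21 only. The list's summed level was 21.3, 28.6 and 17.1. It was almost wholly Kdr (signals of 3588, 4902 and 3173), whose second probe gave 20.5, 20.9 and 38.4. Of 5 chondrocyte markers 4, 5 and 5 were above background, with a summed level of 71.6, 71.1 and 331. The day 21 sum was led by Comp (log2 difference 6.67 against day 0). Sox9 was also higher at day 21 (1.24), and Cnmd was above background at day 3 and day 21 only. Acan (-0.97) and Col2a1 (-0.32) differed the other way. Of 4 megakaryocyte markers 0, 1 and 1 were above background.

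RefSeq promoter entries (build GRCm38.p6) were matched by symbol for 4 of the 7 genes. The 250 bases before the start site are shown for the 3 of these that were at least 2-fold higher at day 21 against day 0. Their differences at day 3 were unlike, as given below. All lie on the plus strand: Cxcl12 at chr6:117168285-117168534, Kitl at chr10:100015571-100015820 and Foxc1 at chr13:31806396-31806645. Capitals mark matches, on either strand, to 5 motifs: the TATA box TATAAA, the GC box GGGCGG, the CCAAT box CCAAT, the forkhead core TAAACA and a pair of EBF half-sites CCCNNGGG.
Cxcl12: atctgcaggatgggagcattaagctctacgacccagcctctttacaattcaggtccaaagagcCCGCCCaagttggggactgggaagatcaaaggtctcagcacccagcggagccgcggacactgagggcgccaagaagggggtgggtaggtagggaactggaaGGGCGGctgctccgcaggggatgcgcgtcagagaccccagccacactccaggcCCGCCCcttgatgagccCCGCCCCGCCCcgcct
Kitl: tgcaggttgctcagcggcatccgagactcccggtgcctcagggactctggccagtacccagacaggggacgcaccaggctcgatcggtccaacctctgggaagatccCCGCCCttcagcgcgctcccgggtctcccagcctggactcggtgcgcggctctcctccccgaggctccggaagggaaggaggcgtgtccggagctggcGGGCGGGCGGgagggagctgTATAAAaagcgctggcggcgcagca
Foxc1: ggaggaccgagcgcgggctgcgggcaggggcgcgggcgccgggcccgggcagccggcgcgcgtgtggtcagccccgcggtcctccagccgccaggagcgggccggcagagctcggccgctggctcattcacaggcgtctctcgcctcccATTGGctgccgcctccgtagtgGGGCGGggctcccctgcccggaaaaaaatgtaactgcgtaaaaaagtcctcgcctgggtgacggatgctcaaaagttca

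The Cxcl12 stretch held 5 GC boxes, of which the last pair overlaps by 1 base, and the Kitl stretch held 3, of which the last pair overlaps by 2. The Foxc1 stretch held 1 GC box. Among 32841 RefSeq promoter stretches of the same length, 32.7% held at least 1. The TATA box of Kitl lay at -25 to -20 from the start, a motif found in 12.4% of all stretches, and the CCAAT box of Foxc1 lay at -101 to -97, a motif found in 33.9%. The forkhead core (12.0% of all stretches) and the EBF pair (11.8%) had no match in these 3 windows. Thpo, matched but not shown and above background on no array, also held 1 GC box and 1 CCAAT box. The 3 stretches were 64.4%, 69.2% and 70.8% G and C, against a median of 52.4% over all. A match is a run of letters and not a measured binding site.

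Most of the measured niche factors were higher late in the culture. Of the 7 genes, 6 were well above background on all 3 arrays, as were 60.3% of all named genes, and Thpo was on none. At day 21 against day 0, 4 of the 6 measured genes were at least 2-fold higher (Angpt1, Cxcl12, Kitl and Foxc1), where 12.8% of 12387 measured genes were, and Il7 was at least 2-fold lower, where 16.8% were. At day 3 against day 0, 2 of 6 were higher (Angpt1 and Foxc1), against 7.73% of 12455 genes, and 0 lower, against 7.85%. At day 21 against day 3, 3 of 6 were higher (Cxcl12, Angpt1 and Kitl), against 7.75% of 12739 genes, and 0 lower, against 7.11%. The median difference of the 6 was 0.38 at day 3 and 1.78 at day 21 against day 0, and 1.11 at day 21 against day 3, where the medians over all measured genes were -0.08, -0.21 and -0.10. The comparisons share arrays, so they are not independent of each other. The members were chosen with earlier results of these data known, so these counts and shares describe the set and test nothing.

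Scaling on spike-in controls moved all genes by a constant, -0.59 at day 3 and -0.28 at day 21 against day 0, and 0.31 at day 21 against day 3. The share of 2-fold calls over all genes that were higher was then 12.4%, 27.7% and 78.0%, in place of 49.6%, 43.2% and 52.1%. With the 75th percentile of detected spots that share was 54.4% at day 21 against day 0 and 62.6% at day 21 against day 3, after shifts of 0.17 and 0.11. Relative to such shifts the members keep their place among all genes.

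**Figure D1:**
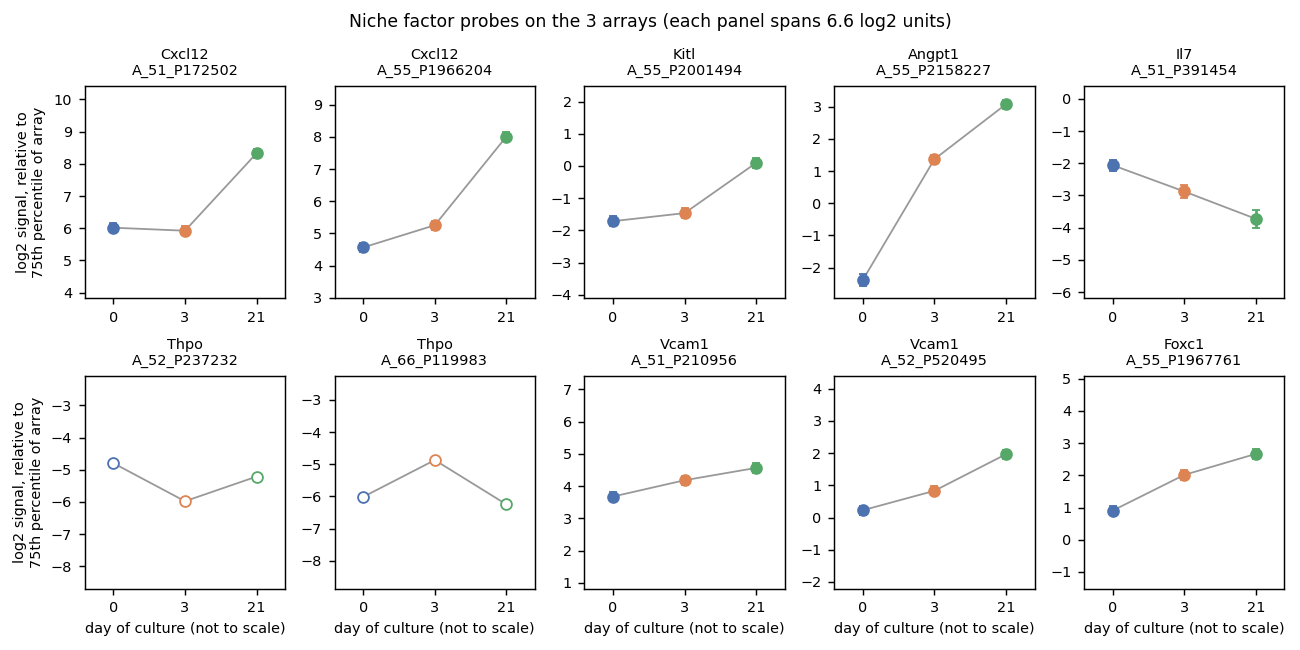
Log2 signal relative to the array's 75th percentile (y axis, the same span in each panel) at day 0, 3 and 21 (x axis, days evenly spaced and not to scale) for the 10 niche factor probes, 1 array a day; bars are the software's SD and open circles are not well above background. Angpt1 was higher at day 3 and again at day 21, both Cxcl12 probes and Kitl mainly at day 21, Il7 was lower at each later day, and both Thpo probes had open circles throughout.

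Cxcl12, the chemokine that retains blood stem cells, was measured by 2 probes, annotated to the transcripts NM_001012477 and NM_021704. The first and brighter probe gave a processed signal of 11161 at day 0, 10597 at day 3 and 61200 at day 21. Day 0 and day 3 lay close together and day 21 stood above both. Its log2 difference was -0.09 ± 0.20 at day 3, 2.31 ± 0.20 at day 21 against day 0 (4.95-fold) and 2.40 ± 0.20 at day 21 against day 3 (5.29-fold). The second probe gave 4083, 6673 and 49018, with a step at day 3 as well as at day 21. Its differences were 0.69 ± 0.20, 3.44 ± 0.20 (10.8-fold) and 2.75 ± 0.20 (6.72-fold). The probes thus ran apart by 0.78 at day 3 and by 1.13 at day 21 against day 0, each with an error of 0.29. Among 2354 genes with 2 probes above background on all arrays, the median gap was 0.19 and 0.20, and 6.12% and 5.18% had a gap at least as wide. By the mean of both probes Cxcl12 was 0.30 higher at day 3, and under quantile normalization by 0.0083, so its direction there depended on the probe and the scaling, while at day 21 both probes were several-fold higher. From day 3 to day 21 it stood at rank 162 of 12739 measured genes by the brighter probe.

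Kitl, the ligand of the KIT receptor, was measured by 1 probe (NM_013598) that gave signals of 52.5, 63.3 and 204. The day 0 and day 3 arrays differed by 0.25 ± 0.22, within 2 SDs of the error model, and changed sign under spike-in scaling (-0.34). Day 21 was higher than day 0 by 1.81 ± 0.21 (3.50-fold) and higher than day 3 by 1.56 ± 0.21 (2.95-fold). Under normexp correction these differences were 1.21 and 1.06, both still past 2-fold. By day 3, 13.8% of its log2 difference between day 0 and day 21 was present. For the second Cxcl12 probe that share was 20.0%. Kitl and Cxcl12 therefore both had most of their difference between day 3 and day 21.

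Angpt1, the agonist of TIE2, had the largest difference among the measured members. Its probe (NM_009640) read 33.2, 450 and 1606 on the day 0, day 3 and day 21 arrays. Each step was well beyond the error of the array. It was higher by 3.74 ± 0.23 at day 3 (13.4-fold) and by 5.45 ± 0.23 at day 21 (43.7-fold), and by 1.71 ± 0.20 from day 3 to day 21 (3.26-fold). This placed it at rank 71 of 12455 and rank 62 of 12387 measured genes in the comparisons with day 0. In contrast to Kitl, 68.7% of its difference was present by day 3. Under normexp background correction with an offset of 50 the differences were 2.34 and 3.93.

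Il7, the lymphoid cytokine, was the measured member that was lower. Its probe (NM_008371) was dim throughout, with signals of 41.2, 23.8 and 14.4 at day 0, 3 and 21, and was marked well above background each time. The log2 difference was -0.81 ± 0.27 at day 3, -1.66 ± 0.33 at day 21 against day 0 (3.17-fold lower) and -0.85 ± 0.36 from day 3 to day 21. Each of these steps was beyond 2 SDs of the error model. Probes spotted 10 times with a signal under 50 had an SD of 0.39 for a difference, larger than the 0.19 over all such probes. With normexp background correction the difference at day 21 was -0.50 and no longer 2-fold.

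Thpo had 2 probes (NM_009379), and on all 3 arrays both failed the background criterion. The first gave signals of 6.19, 2.77 and 5.14 and the second 2.67, 5.97 and 2.52, so the probes did not run in parallel and no fold is given. Of the hepatocyte markers Alb and Apoa1 were not above background on any array, and Ttr was above background at day 21 (signal 27.7) and not before.

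Vcam1, the adhesion molecule, differed less between the days than most other members. The brighter of its 2 probes (both NM_011693) gave 2203, 3173 and 4519 at day 0, 3 and 21, an order that was kept by the dimmer probe with 202, 310 and 745. The brighter probe was higher by 0.51 ± 0.20 at day 3 and by 0.89 ± 0.20 at day 21, short of 2-fold; its day 3 and day 21 values, 0.38 ± 0.20 apart, did not differ beyond 2 SDs. The dimmer probe was higher by 0.60 ± 0.21 at day 3 and 1.74 ± 0.20 at day 21 (3.33-fold), and the gap between the probes at day 21 was 0.85 ± 0.29. The mean of both, 1.31, passed 2-fold at day 21, as did quantile normalization (1.11) and the percentile of detected spots (1.06). At day 3 the sign changed under spike-in scaling (-0.08).

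Foxc1, the transcription factor of the reticular cells, was measured by 1 probe (NM_008592) that gave 323, 704 and 1209. It was higher by 1.11 ± 0.20 at day 3 (2.15-fold), by 1.76 ± 0.20 at day 21 (3.38-fold) and by 0.65 ± 0.20 from day 3 to day 21 (1.57-fold). All 3 days were apart by more than 2 SDs. Of its difference 62.9% was present by day 3, against 13.8% for Kitl. At day 3 it fell short of 2-fold under spike-in scaling (0.52) and normexp correction (0.95).

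**Figure D2:**
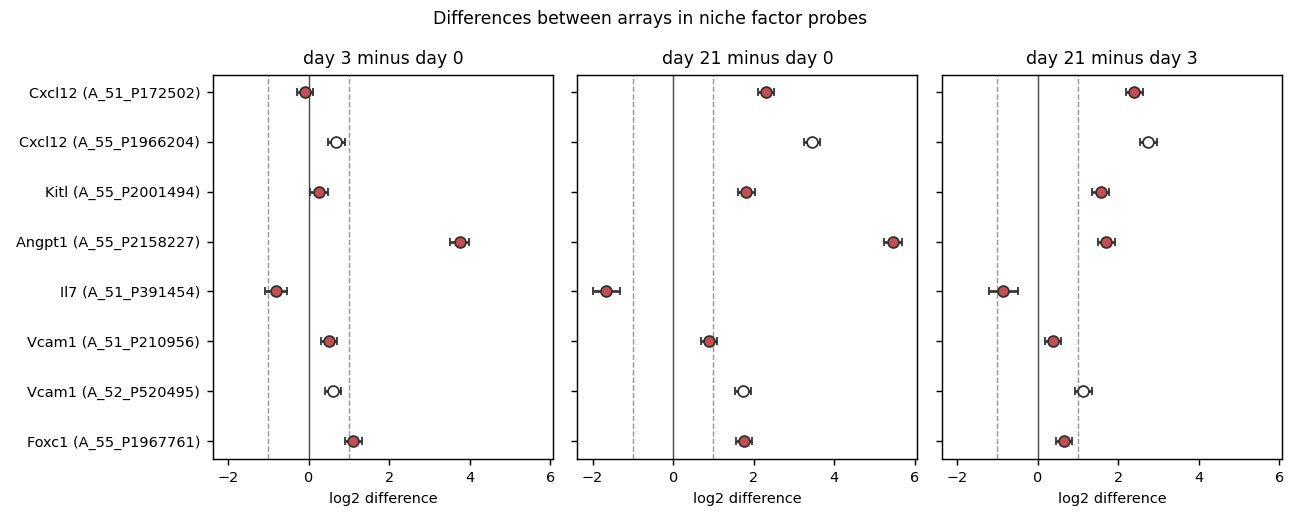
Log2 differences (x axis) between pairs of arrays for the 8 niche factor probes above background, with the software's SD as bars; filled points are the brightest probe of a gene and dashed lines mark 2-fold. At day 21 minus day 0 the filled points of Cxcl12, Kitl, Angpt1 and Foxc1 lie right of the upper line, Vcam1 at 0.89 just inside it, and Il7 at -1.66 left of the lower line.

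Markers of other cell types moved over the same arrays. The summed adipocyte level went from 7.14 to 1044 between day 0 and day 21, with Adipoq at least 1238-fold and Cidec at least 1718-fold higher, neither of them above background at day 0. Such at-least folds set the brighter value against the lowest signal detected on the dim array, or the dim probe's own if higher. The summed osteoblast level was 359, 377 and 269, led by Col1a1, whereas Ibsp was at least 63.7-fold and Alpl at least 29.1-fold higher at day 21. The Cd34 level was also higher at each later day, as given above. The part of these cell types in the niche factor differences was not tested.

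Of the receptors of the niche factors, most of which belong to blood or endothelial cells, some were above background and others were not. Of 10 receptor genes, 3 were measured in both comparisons with day 0, with 0 higher and 2 lower each time. Among all measured genes 7.73% were higher and 7.85% lower at day 3, and 12.8% and 16.8% at day 21. The median of the 3 receptors was -1.10 at day 3 and -1.08 at day 21. With at-least folds counted in, the receptor median was -0.12 and -0.83. At day 21 the count lower was 0 under normexp correction, and 1 under quantile normalization and with the percentile of detected spots. On no array were Cxcr4, Kit, Il7r, Tie1 or Itgb7 marked well above background, and Il2rg, the common gamma chain, was at day 0 alone. Ackr3, the scavenger receptor of CXCL12, gave 479, 762 and 738 and was higher by 0.65 ± 0.20 and 0.47 ± 0.20. The VLA-4 subunits were both lower at day 21: the difference was -1.78 ± 0.35 for Itga4 (dim, 35.4 to 11.4, with a second probe not above background) and -1.08 ± 0.20 for Itgb1 (-0.93 on its second probe). Tek, the angiopoietin receptor, gave 15.7 at day 3 and 23.0 at day 21 but did not clear background at day 0. Its day 21 value was at least 2.04-fold above day 0.

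**Figure D3:**
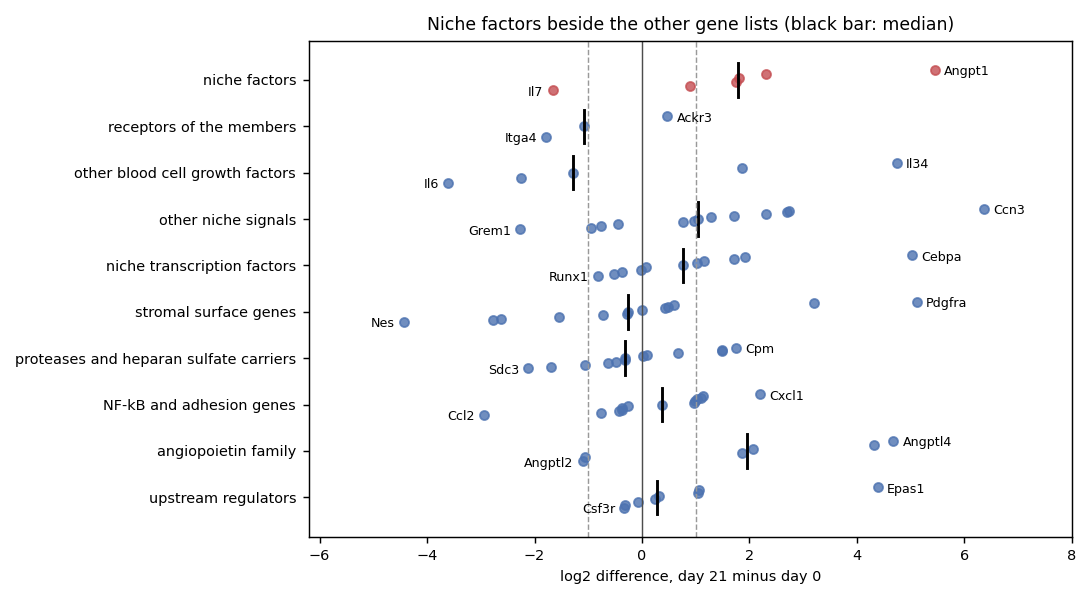
Log2 difference at day 21 minus day 0 (x axis) of each measured gene of the niche factors (red) and of 9 related gene lists (blue); the black bar is the list's median, dashed lines mark 2-fold, and the outermost genes are named. The niche factor median lies at 1.78, and Il6 (-3.61) and Il34 (4.75) bound the other blood cell growth factors.

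The rest of the angiopoietin family differed in both directions. Of 8 genes 6 were measured. At day 3, 2 were higher and 1 lower (median 0.40), where 7.73% and 7.85% of all measured genes were. At day 21, 4 were higher and 2 lower (median 1.96), where 12.8% and 16.8% of all measured genes were. Angpt2, a TIE2 ligand that can oppose Angpt1, was higher by 2.87 ± 0.22 at day 3 and 4.32 ± 0.22 at day 21, with signals of 42.7, 317 and 942. Angptl4, an inhibitor of lipoprotein lipase, was higher by 4.68 ± 0.20 at day 21, Angptl1 by 2.06 ± 0.23 and Angpt4 by 1.86 ± 0.36. Angptl7 was at least 8.44-fold higher. The 2 lower members at day 21 were Angptl2 (-1.11) and Angptl6 (-1.05), named after their values were seen. Both calls were lost under normexp correction and with the percentile of detected spots, where 0 members were lower. The family's median at day 21 was 0.79 under normexp correction.

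Other growth factors of blood cells differed in both directions. Of 14 genes, 5 were measured in the comparisons with day 0. At day 3, 2 were higher and 3 lower (median -1.52), where 7.73% and 7.85% of all measured genes were. At day 21, 2 were higher and 3 lower (median -1.29), where 12.8% and 16.8% of all measured genes were. At day 21 against day 3, 1 of 6 was higher and 1 lower (median 0.32), where 7.75% and 7.11% of all measured genes were. By the mean over a gene's probes the median at day 21 against day 0 was -0.056. Il34, a ligand of the CSF1 receptor, gave 286, 3489 and 8533 and was higher by 3.59 ± 0.20 and 4.75 ± 0.20. Flt3l, the FLT3 ligand, was higher by 1.29 ± 0.21 and 1.86 ± 0.21. Il6 was lower (-1.52 ± 0.21 and -3.61 ± 0.23), with signals of 385, 136 and 35.0. Il11 was lower too (-2.28 ± 0.21 and -2.25 ± 0.21). Csf1, the other CSF1 receptor ligand, named after its values were seen, was lower on its brightest probe (-1.68 ± 0.20 and -1.29 ± 0.20), but its other probes gave -0.74 and -0.70 at day 3 and 0.57 and 0.56 at day 21, so its direction at day 21 depended on the probe. Il15 was above background at day 3 and day 21 but not at day 0. Tslp and Lif were above background at day 0 only, and at day 21 were at least 4.64-fold and at least 2.90-fold lower. Csf2, Csf3, Il3, Osm, Epo and Tnfsf13b were not above background on any array.

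Of 16 other niche signals 13 were measured. At day 3, 4 were higher and 3 lower (median -0.07), where 7.73% and 7.85% of all measured genes were. At day 21, 7 were higher and 1 lower (median 1.03), where 12.8% and 16.8% of all measured genes were. The matricellular protein Ccn3 was higher by 4.97 ± 0.23 and 6.36 ± 0.23, the heparin-binding factor Ptn by 2.30 ± 0.20 and 2.70 ± 0.20, osteopontin Spp1 by 1.74 ± 0.20 and 2.74 ± 0.20, and the TAM receptor ligand Gas6 by 1.56 ± 0.20 and 2.31 ± 0.20. Under spike-in scaling 3 were lower at day 21. The single gene lower as reported was the BMP antagonist Grem1 (-2.27), named after its value was seen, and the Wnt inhibitor Dkk1 was at least 5.91-fold lower.

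Among 12 transcription factors of niche stroma, 11 were measured. At day 3, 1 was higher and 1 lower (median 0.12), where 7.73% and 7.85% of all measured genes were. At day 21, 5 were higher and 0 lower (median 0.77), where 12.8% and 16.8% of all measured genes were. Under spike-in scaling 3 were higher and 1 lower at day 21. Ebf1 was higher by 0.89 ± 0.20 and 1.72 ± 0.20, and Ebf3, which with Foxc1 marks the reticular cells, by 0.48 ± 0.20 and 1.15 ± 0.20. The adipogenic factor Cebpa was higher by 2.86 ± 0.22 and 5.03 ± 0.22, and Pparg differed by -0.21 ± 0.20 and 1.92 ± 0.20. Gli1, a Hedgehog effector, was at least 5.33-fold higher at day 21. Foxc2, the closest relative of Foxc1, differed by -0.69 ± 0.20 at day 3 and 0.07 ± 0.20 at day 21.

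All 13 stromal surface genes were measured. At day 3 and at day 21 against day 0, 2 were higher and 4 lower, with medians of -0.43 and -0.26. Among all measured genes 7.73% were higher and 7.85% lower at day 3, and 12.8% and 16.8% at day 21. Pdgfra was higher by 4.74 ± 0.21 and 5.12 ± 0.21 and Ly6a by 3.65 ± 0.20 and 3.20 ± 0.20. The perivascular genes Nes (-4.44 ± 0.20 at day 21) and Cspg4 (-2.77 ± 0.20) were lower. Lepr, the leptin receptor that marks the main Cxcl12 and Kitl source in adult marrow, was higher by 0.86 ± 0.20 at day 3, differed by -0.26 ± 0.20 at day 21 and was lower at day 21 than at day 3 (-1.12 ± 0.20, 2.17-fold) on its brightest probe. A dim second probe gave -0.69, -1.11 and -0.42 in the same comparisons.

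Of 16 NF-κB and adhesion genes, the pathway that drives Vcam1 in inflamed cells, 13 were measured. At day 3, 2 were higher and 1 lower (median 0.44), where 7.73% and 7.85% of all measured genes were. At day 21, 4 were higher and 1 lower (median 0.38), where 12.8% and 16.8% of all measured genes were. Under spike-in scaling 1 was higher and 2 lower at day 21. At day 21 Cxcl1 was higher by 2.21 ± 0.26, Irf1 by 1.13 ± 0.20 and the NF-κB inhibitor Nfkbia by 1.09 ± 0.20, while Ccl2 was lower (-2.94 ± 0.20). Icam1, like Vcam1 an integrin ligand, did not clear background at day 0, and its day 21 value was at least 11.2-fold above it.

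Of 16 genes for proteases that cut the niche factors and for heparan sulfate carriers that bind CXCL12, 13 were measured. At day 3, 1 was higher and 2 lower (median 0.10), where 7.73% and 7.85% of all measured genes were. At day 21, 3 were higher and 3 lower (median -0.31), where 12.8% and 16.8% of all measured genes were. Dpp4, Mmp9 and Ctsg were not above background on any array. Mmp2, named after its values were seen, was higher by 0.98 ± 0.20 at day 3 and 1.49 ± 0.20 at day 21. At day 21 Cpm, a carboxypeptidase, was higher by 1.75 ± 0.22 and the syndecan Sdc4 by 1.50 ± 0.21, while Sdc3 (-2.12 ± 0.20) and the metalloprotease Adam19 (-1.69 ± 0.20) were lower.

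**Figure D4:**
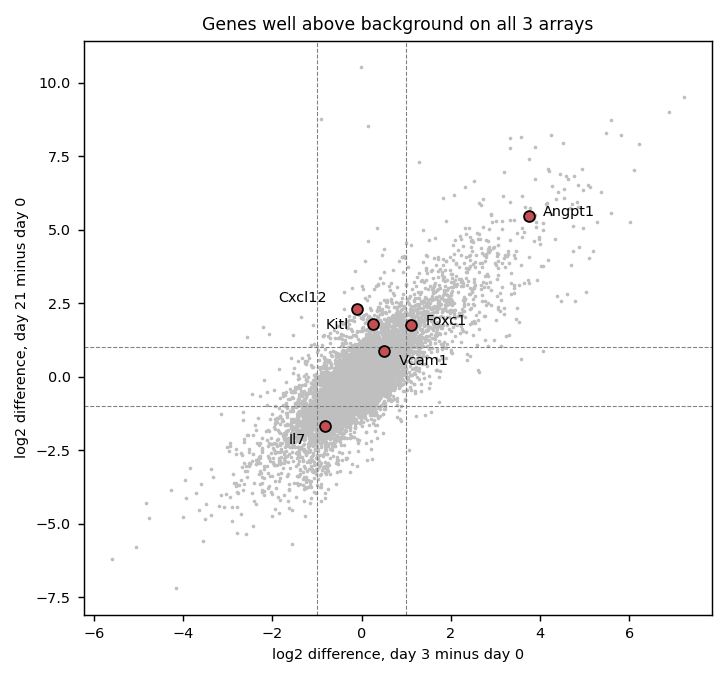
Log2 difference at day 3 minus day 0 (x axis) against day 21 minus day 0 (y axis) for the 12221 genes well above background on all 3 arrays (grey), with the 6 measured niche factors in red; dashed lines mark 2-fold and the axes share the day 0 array. Angpt1 lies at 3.74 and 5.45, and Cxcl12 and Kitl lie above the upper line at a day 3 difference near 0.

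The genes nearest to each niche factor were found by the Euclidean distance between pairs of log2 differences (day 3 and day 21 against day 0) over the 3 arrays, among 11824 genes. Nearest to Cxcl12 were Chpt1 (0.03), Adamtsl1 (0.07), Tmem25 (0.22) and Rundc3a (0.26), and 3 genes lay within 0.25. Nearest to Angpt1 were Nr1h3 (0.12), Clec11a (0.13), Islr (0.16) and Rgcc (0.25), again with 3 genes within 0.25. Kitl had 29 genes within that distance, led by Lratd1 (0.05), Cdnf (0.07), Slc5a3 (0.08) and Hibch (0.10). Foxc1 had 102, led by Dram1 (0.03), Pik3ip1 (0.03), Olfml2b (0.06) and Txlng (0.06). Il7 had 170, led by Evl (0.01), Rnf19b (0.03), Klrg2 (0.03) and Cks1b (0.04), and Vcam1 had 294, led by Pik3r3 (0.02), Cercam (0.02), Dbi (0.03) and Cc2d2a (0.03). By the brightest probe, the profiles of Cxcl12 and Angpt1 thus had few near neighbours on these arrays and those of Il7 and Vcam1 many. The second probes of Cxcl12 (0.69 and 3.44) and Vcam1 (0.60 and 1.74) lay elsewhere, and their neighbours were not sought.

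**Figure D5:**
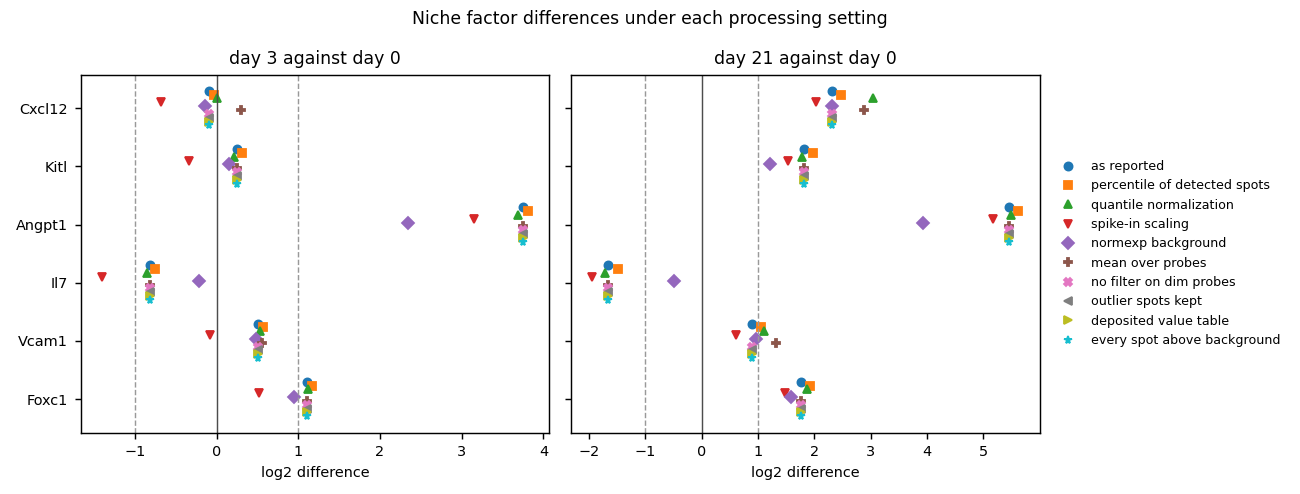
Log2 differences (x axis) of the 6 measured niche factors as reported and under 9 other processing settings (symbols), for day 3 and day 21 against day 0; dashed lines mark 2-fold. At day 21 Angpt1, Cxcl12, Kitl and Foxc1 lie beyond 2-fold under each setting plotted, and Il7 under all but normexp correction (-0.50). The settings on dim probes, outlier spots, the deposited value table and every spot above background gave the values as reported.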

How the data were processed

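Each of the 3 samples was labelled with Cy3 and hybridised to 1 Agilent mouse array. The deposited values are linear spot intensity from Agilent Feature Extraction, version 10.10.1.1 per the file headers and 12.0 per the submitters' processing notes. The processed signal was background-subtracted within each array by that software and not scaled between arrays, per the file headers; the deposited value table of the series holds the same intensity. From the log2 signal of each spot the 75th percentile of the 59305 non-control spots of its array was subtracted; as signals these percentiles were 172, 175 and 191 at day 0, 3 and 21. Outlier spots were left out, as were 17 of 55681 probes with no usable spot. No non-control spot was saturated. Accessions, without versions, named 26755 probes through a RefSeq table (GRCm38.p6) and 28909 stayed unnamed, so further probes of a member may be among these. A gene was represented by its brightest probe. All genes were processed together, with Python 3.11.15, pandas 2.3.3 and limma 3.58.1 (normexp, offset 50, on the median spot signal, as the mean signal was not used here). The scaling and call code was run on simulated arrays with planted changes and the same noise for all probes. That run checked the code alone. It did not model the wider spread of dim probes, or differences between cultures or slides. Named genes were the members, their receptors and the markers. From each list they were the 4 measured genes with the largest difference at day 21 and up to 2 bounds. For each member the 4 nearest genes were also named. Lepr, Foxc2, Il15 and some genes above background on no array were named outside this rule. So were the genes said to be named after their values were seen. A few genes of these lists are not reported here and were left out of the lists' counts and medians. Members and lists were chosen with earlier results of these data known. The number of arrays limits the precision.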

Additional observations from a re-analysis of the deposited data

How the results depend on the processing

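At day 21 the calls of Angpt1, Cxcl12, Kitl and Foxc1 as at least 2-fold higher held under the 9 other settings run. Some of these settings left the measured members' values unchanged and so could not alter a call. They were no filter on dim probes, outlier spots kept, the deposited value table, and every spot required above background. The count of members at least 2-fold higher at day 3 against day 0 was 1 in place of 2 under normexp correction and under spike-in scaling. The count at least 2-fold lower at day 3 was 1 in place of 0 under spike-in scaling (Il7, -1.40) and without a filter on dim probes, where Thpo was counted on signals not above background. The count lower at day 21 against day 0 was 0 in place of 1 under normexp correction. The order of the 3 days differed for Cxcl12 under quantile normalization and the mean over probes, and for Kitl and Vcam1 under spike-in scaling. Of the related lists, under spike-in scaling the count lower at day 3 was 4 in place of 1 for the NF-κB genes and for the transcription factors, 2 in place of 1 for the angiopoietin family, 5 in place of 3 for the other niche signals, 5 in place of 2 for the proteases and carriers, 7 in place of 4 for the stromal surface genes and 3 in place of 1 for the upstream regulators. The cause of these moves was not tested. Over all genes, the counts higher and lower at day 3 were 963 and 978, against 494 and 3491 under spike-in scaling, 582 and 550 under normexp correction and 1904 and 1685 without the filter. At day 21 against day 0 they were 1582 and 2078, against 1235 and 3230 under spike-in scaling, 1141 and 1407 under normexp correction and 2787 and 3019 without the filter; at day 21 against day 3 they were 987 and 906, against 1596 and 450, 613 and 466, and 1792 and 1689. Dim signals limit Il7, Kitl and the day 0 value of Angpt1. No paired analysis was possible because each group has 1 array.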

Other observations

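Of 9 genes known to act upstream of niche factor expression, 8 were measured. At day 3, 1 was higher and 1 lower (median 0.14), where 7.73% and 7.85% of all measured genes were. At day 21, 3 were higher and 0 lower (median 0.28), where 12.8% and 16.8% of all measured genes were. Under spike-in scaling 1 was higher at day 21. Adrb3, the β3-adrenergic receptor, gave 218, 101 and 505, a difference of -1.13 ± 0.21 at day 3 and 1.07 ± 0.20 at day 21. Its second probe gave 0.91 at day 21, short of 2-fold, and was not above background at day 3. The parathyroid hormone receptor Pth1r differed by 0.15 ± 0.20 and 1.04 ± 0.20, and the G-CSF receptor Csf3r by -0.75 and -0.33. Epas1, which encodes HIF-2α, was higher by 4.39 at day 21 on its representing probe and by 3.42 on a second, while its remaining probe differed by -0.30, so its value depends on the probe. Hif1a (-0.32) and the glucocorticoid receptor Nr3c1 (-0.07, and 0.81 on its second probe) stayed within 2-fold at day 21, and these 2 were named after their values were seen.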
